A study of Mus musculus with 6 samples.

Results

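Type I interferon-stimulated antiviral genes were followed in aortic arteries of mouse fetuses with and without a working copy of Nod1, 6 h after their dams received the NOD1 ligand FK565. The set was a list of 44 gene names and comprised antiviral effectors, nucleic acid sensors, Stat2 and the subunits of the type I and type II interferon receptors. Of the 44, 43 were on the array, read by 63 of its 55681 non-control probes and among 34797 distinct gene names, and Ifi205 was not on it. Testing required a probe that stood well above background on 3 or more arrays. This left 41 members, and Oas1g and Oas3 were too dim.

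All groups came from C57BL/6 mice. Nod1 -/- dams mated with Nod1 +/- males received 500 µg of the synthetic NOD1 ligand FK565 under the skin at E18.5, so that every fetus developed in a Nod1 -/- dam. Fetal aortic arteries were Nod1 +/- on 3 arrays and Nod1 -/- on 3 arrays, and the design text describes littermates. No array came from a dam without FK565, and no wild-type fetus was measured, so the comparison is of genotypes under the ligand. The labels do not say whether an array held 1 fetus or a pool, nor which fetuses shared a litter. The p-values thus cover only the variation among these arrays, and part of it may be technical. Sex-linked transcripts, given below, differed between arrays within each genotype, so neither genotype was a single RNA source measured 3 times.

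Type I interferons bind the IFNAR1 and IFNAR2 receptor, and the kinases JAK1 and TYK2 then phosphorylate STAT2, a subunit of the transcription factor ISGF3. ISGF3 binds interferon-stimulated response elements in promoters and switches on genes whose products block virus entry, translation and replication. NOD1 detects cell wall fragments of bacteria in the cytosol and acts on NF-kB by way of the kinase RIPK2, and some of the same genes also answer to interferon gamma, to NF-kB or to IRF3 directly.

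Promoter stretches of 7 members show how the response element is placed, and were chosen to set members that did and did not pass the test side by side. They are RefSeq sequence of GRCm38.p6, in stretches of 80 bases upstream of the transcription start, 5′ to 3′ on the strand of the gene. Capitals mark the core of the response element, which is GAAA, any 2 bases and GAAA again, on either strand. Read from the reverse strand it is TTTC, any 2 bases and TTTC, and neighbouring matches can share bases.
Isg15 chr4:156200849-156200928 (-): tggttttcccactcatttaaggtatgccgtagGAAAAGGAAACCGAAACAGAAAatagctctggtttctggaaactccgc
Ifit1 chr19:34640759-34640838 (+): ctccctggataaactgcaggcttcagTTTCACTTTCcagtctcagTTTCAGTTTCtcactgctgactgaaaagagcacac
Ifit3 chr19:34583359-34583438 (+): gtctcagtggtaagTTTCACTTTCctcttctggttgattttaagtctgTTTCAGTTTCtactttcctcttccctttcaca
Rsad2 chr12:26456523-26456602 (-): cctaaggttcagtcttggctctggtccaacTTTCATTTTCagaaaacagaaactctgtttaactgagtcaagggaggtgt
Bst2 chr8:71537553-71537632 (-): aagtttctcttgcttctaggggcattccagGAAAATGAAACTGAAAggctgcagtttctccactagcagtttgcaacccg
Ifitm2 chr7:140955962-140956041 (-): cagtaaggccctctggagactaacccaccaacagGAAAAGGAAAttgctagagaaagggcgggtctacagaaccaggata
Ifitm1 chr7:140967996-140968075 (+): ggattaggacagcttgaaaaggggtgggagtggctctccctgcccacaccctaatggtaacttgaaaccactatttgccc

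Windows from 250 bases before to 50 after the start were matched by symbol for 33 of the 44 members. Where a gene had several windows, a match in any of them counted. This core was present in 17 of the 33 (51.5%), against 1079 of all 27025 genes with windows (3.99%). It occurred in 4 of 11 members that rose (36.4%) and in 10 of 19 that were tested and did not pass (52.6%). Isg15 held 3 overlapping matches and Bst2 held 2, Ifit1 and Ifit3 held 2 separate ones, and none of the 4 receptor genes held any. Ifitm1, which had the largest difference between genotypes, had no match within its window. The core of the gamma-activated sequence, TTCNNNGAA, reads alike on both strands and can overlap the first motif. It was found in 9 of 33 members (27.3%) and 9.55% of all genes with windows. A core of NF-kB sites, GGGA, any 4 bases and CC, on either strand, was found in 8 of 33 (24.2%) and 22.9% of all genes. Matches are letters in a window and were not tested for binding.

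Of the 41 tested members, 13 rose in Nod1 +/- aortas (31.7%) and none fell (limma, Benjamini-Hochberg adjusted p below 0.05). Over all 21478 genes tested, 7.66% were higher in Nod1 +/- and 11.0% lower. The 13 were the receptor subunits Ifngr1 and Ifngr2, the sensor Ddx58, Oasl2, the restriction factors Ifitm1, Ifitm3 and Bst2, Herc6, the ubiquitin and ADP-ribose enzymes Parp14, Parp9, Dtx3l and Trim21, and Ifi35. Of these, Ifitm1, Parp14, Ifitm3, Herc6 and Oasl2 differed at least 2-fold, 5 of 41 members against 2.94% of all genes. Differences were positive for 35 of 41 members (85.4%) and for 39.9% of all genes, and the median difference was 0.79 among members and -0.10 among all genes. Scaling arrays to their median signal instead moved these medians to 0.90 and 0.01, so values below can be read against a common shift of about that size. The lowest Nod1 +/- array lay above the highest Nod1 -/- array for 20 of 41 members (48.8%), against 16.3% of all genes, and the opposite held for 0 members, against 26.1% of all genes. An unadjusted p below 0.05 in limma was reached by 23 members, against 35.6% of all genes, and by 0 of the 6 members with a negative difference. The count of 13 depended on single arrays. It was 4, 7 and 6 without Nod1 +/- replicate 1, 2 or 3, 3 without Nod1 -/- replicate 2, 8 without Nod1 -/- replicate 3, and 16 without Nod1 -/- replicate 1. In these smaller fits the count of all genes higher in Nod1 +/- fell too, from 1646 to between 805 and 1313. The median difference of members lay between 0.51 and 1.04 in them.

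**Figure D1:**
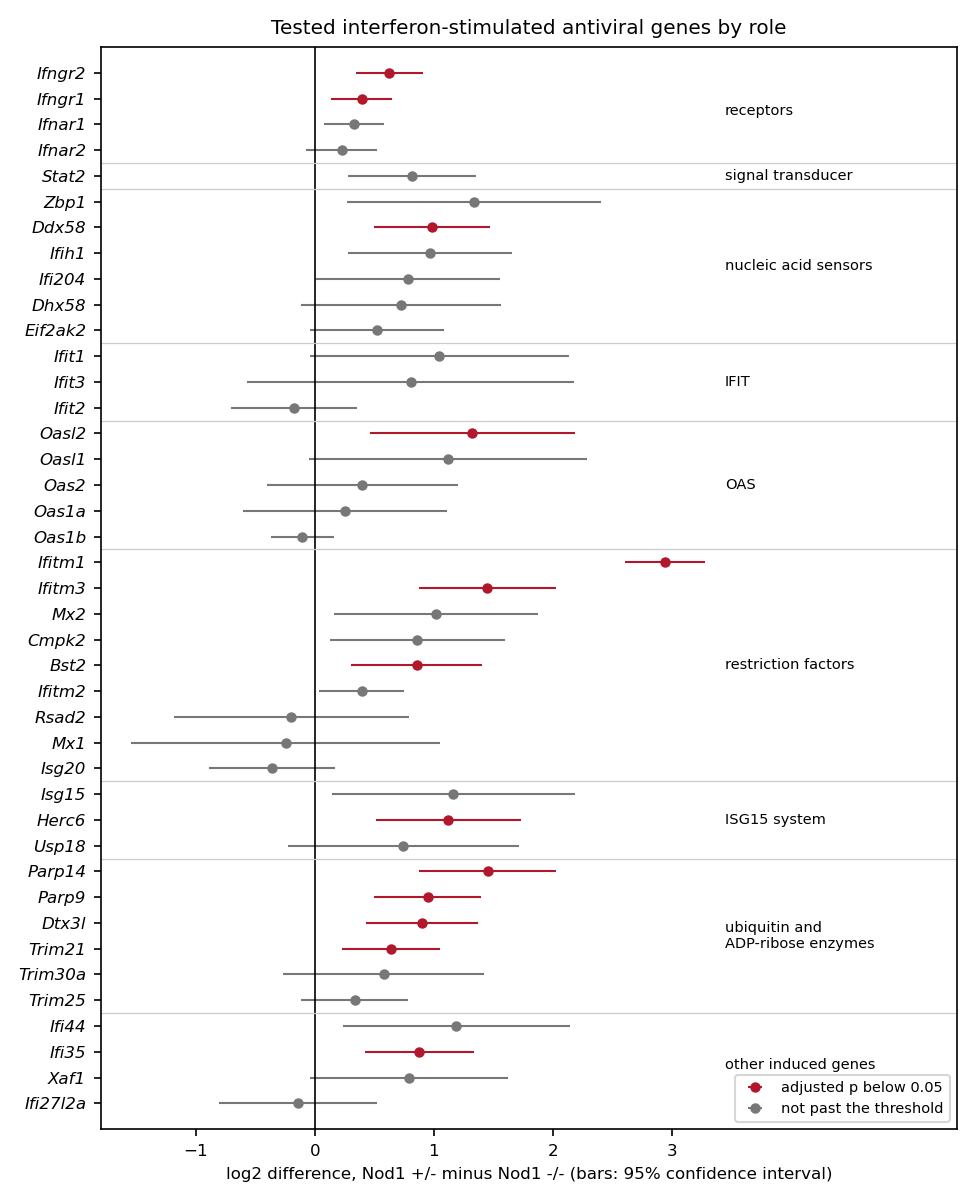
Difference between genotypes for each of the 41 tested members, in role groups. The horizontal axis is log2 Nod1 +/- minus Nod1 -/-, points are limma estimates and bars their 95% confidence intervals. Members past the threshold are red, and Ifitm1 stands apart at 2.94.

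Signal is given below as log2 relative to the array's 75th percentile, listed for replicates 1, 2 and 3, with differences as Nod1 +/- minus Nod1 -/- and their standard error (SE) and limma's adjusted p. Levels of different probes are not comparable with each other. Probe positions are those of mm9, and exons of that build were not used here. In bulk tissue, fewer cells of a type and less RNA per cell cannot be told apart.

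Both subunits of the interferon gamma receptor rose, by small amounts with tight replicates, whereas the chosen probes of both type I receptor subunits did not pass. Ifngr2, the accessory chain of the interferon gamma receptor (chromosome 16, 91563982 to 91564041), stood at 3.95, 4.15 and 3.95 in Nod1 +/- and 3.43, 3.50 and 3.24 in Nod1 -/- aortas. Its difference was 0.62 (SE 0.12; adjusted p = 0.0175). Ifngr1, the ligand-binding chain (chromosome 10, 19329923 to 19329982), read 3.78, 3.84 and 3.85 against 3.51, 3.51 and 3.27. The Ifngr1 difference of 0.39 (SE 0.11; adjusted p = 0.0495) was the smallest among the members that rose. For both genes the 3 Nod1 +/- arrays lay above all Nod1 -/- arrays. Ifnar1 differed by 0.33 (adjusted p = 0.0755) and Ifnar2 by 0.22 (adjusted p = 0.237). A further, dimmer Ifnar1 probe passed when every probe was tested on its own, with a difference of 0.79 (adjusted p over all probes = 0.0117), and yet another differed by 0.43 (adjusted p = 0.0649). Leaving out Nod1 +/- replicate 2 or Nod1 -/- replicate 1 ended the Ifngr2 call, with adjusted p = 0.0562 and 0.0538. Ifngr1 did not pass without any of the 6 arrays, with adjusted p from 0.0881 to 0.127.

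Stat2, the subunit of ISGF3 on the list, lay just outside the threshold. Its signal was 3.10, 2.60 and 3.28 in Nod1 +/- and 2.49, 2.06 and 1.99 in Nod1 -/- aortas, without overlap. The difference was 0.81 (SE 0.22; adjusted p = 0.0512). Without Nod1 +/- replicate 2, the lowest of its group, the adjusted p was 0.0347.

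Among 6 tested sensors of foreign nucleic acid, only Ddx58 rose, while all 6 had positive differences of 0.52 to 1.34. Ddx58, which encodes the RNA sensor RIG-I (chromosome 4, 40151893 to 40151952), read 3.13, 2.82 and 3.0 against 2.30, 2.10 and 1.59. This was a 1.98-fold difference (log2 0.99, SE 0.20; adjusted p = 0.0228), and no Nod1 -/- array reached the Nod1 +/- range. The call was lost without Nod1 +/- replicate 1 (adjusted p = 0.0704), Nod1 +/- replicate 3 (0.052) or Nod1 -/- replicate 2 (0.0675). Another, dimmer Ddx58 probe differed by 0.93, also without overlap, and did not pass (adjusted p over all probes = 0.147). Zbp1, a sensor of Z-form nucleic acid that can trigger necroptosis, had the largest difference of this group. It read 0.75, 0.06 and -0.04 against -0.30, -1.0 and -1.94, a difference of 1.34 (SE 0.44; adjusted p = 0.0841). At this probe the arrays did not overlap, but the Nod1 -/- values spanned more than a log2 unit. The other Zbp1 probe differed by 1.08 with overlapping arrays (adjusted p over all probes = 0.202). Without Nod1 -/- replicate 1 the adjusted p of Zbp1 was 0.0488. Ifih1, encoding the RNA sensor MDA5, had a difference of 0.97 (adjusted p = 0.0624) without overlap, and passed without Nod1 -/- replicate 1 (adjusted p = 0.0402). Ifi204, a DNA sensor of the PYHIN family, read 3.98, 3.61 and 3.59 against 3.62, 2.82 and 2.39. Nod1 -/- replicate 1 fell within the Nod1 +/- range, and the difference was 0.78 (adjusted p = 0.137). Eif2ak2, encoding the RNA-activated kinase PKR, and Dhx58, encoding LGP2, differed by 0.52 and 0.73 (adjusted p = 0.165 and 0.19).

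None of the 3 IFIT genes, whose products bind foreign RNA and block its translation, passed the threshold, and 0 of 3 reached an unadjusted p below 0.05 with limma. Their median SD within a genotype was 0.67, against 0.36 over all tested members. Ifit1, the classical marker of a type I interferon response, read 0.10, -1.26 and -0.53 in Nod1 +/- and -0.90, -1.72 and -2.21 in Nod1 -/- aortas. Nod1 -/- replicate 1 exceeded Nod1 +/- replicate 2, and the difference of 1.05 had a 95% confidence interval from -0.04 to 2.14 (adjusted p = 0.152). Ifit3 read 1.87, 0.28 and 1.51 against 1.29, 0.42 and -0.46, overlapping widely. Its difference was 0.81 (95% confidence interval -0.57 to 2.18; adjusted p = 0.349). Ifit2 had a difference of -0.18 (adjusted p = 0.594), so that the 3 genes did not share a sign.

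In the OAS family, whose enzymes make 2-5A to activate RNase L in answer to double-stranded RNA, 1 of 5 tested genes rose. Oasl2, an OAS-like gene (chromosome 5, 115362168 to 115362227), read 3.58, 2.95 and 3.24 against 2.67, 1.79 and 1.33. The groups did not overlap, and the 2.51-fold difference (log2 1.33, SE 0.36) was at the edge of the threshold (adjusted p = 0.0498). Its adjusted p was 0.018 without Nod1 -/- replicate 1 and between 0.0789 and 0.142 without any other array. Oasl1, a translational repressor of Irf7, had a difference of 1.12 with overlapping arrays (adjusted p = 0.154). Oas2 and Oas1a differed by 0.40 and 0.25 (adjusted p = 0.427 and 0.64). Oas1b read 4.41, 4.29 and 4.56 against 4.55, 4.45 and 4.59, a difference of -0.11 (adjusted p = 0.514). Its probes did not share a sign, since another read 0.53 in favour of Nod1 +/- (adjusted p over all probes = 0.0696). Oas1b and Mx1 are known to be defective alleles in C57BL/6 mice, so their transcripts need not reflect a working protein. OAS genes are close copies, and cross-hybridisation between them was not tested. The 2 probes of Oas1g together were well above background on 1 array, and the Oas3 probe also on 1.

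Restriction factors, which act on virus entry, budding or replication, held the largest difference of the set and 3 of its 6 negative ones. Ifitm1, a membrane protein that blocks fusion of enveloped viruses (chromosome 7, 148155658 to 148155717), read 3.31, 3.55 and 3.30 in Nod1 +/- and 0.54, 0.22 and 0.57 in Nod1 -/- aortas. The 3 values within each genotype lay close together and the groups were far apart. Ifitm1 was 7.68-fold higher (log2 2.94, SE 0.14; adjusted p = 0.000391), and a probe shifted by a single base gave 3.04. Ifitm3, the family member best known for restricting influenza virus (chromosome 7, 148195591 to 148195650), read 6.39, 6.42 and 6.18 against 5.24, 5.04 and 4.36. No array overlapped, and Ifitm3 was 2.73-fold higher (log2 1.45, SE 0.24; adjusted p = 0.0123). Ifitm1 and Ifitm3 were the 2 members that passed whichever single array was left out, with adjusted p up to 0.0035 and 0.0423. Ifitm2, the neighbouring gene of the same family, read 5.45, 5.61 and 5.25 against 5.18, 5.13 and 4.83 and differed by 0.40 (adjusted p = 0.113).

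Bst2, encoding tetherin, which holds budding virions at the cell surface (chromosome 8, 74058603 to 74058662), read 4.73, 4.28 and 4.64 against 4.08, 3.71 and 3.29. It was 1.81-fold higher without overlap (log2 0.86, SE 0.23; adjusted p = 0.049). Its adjusted p was 0.04 without Nod1 -/- replicate 1 and between 0.0638 and 0.129 without any other array. Mx2, a dynamin-like GTPase, and Cmpk2, a mitochondrial nucleotide kinase next to Rsad2, differed by 1.02 and 0.86 (adjusted p = 0.0962 and 0.0989). Another Cmpk2 probe passed on its own, with 1.02 (adjusted p over all probes = 0.0312). Mx1, Rsad2 and Isg20 had negative differences that did not pass. Mx1, a GTPase against influenza virus in strains with an intact allele, read -1.10, -2.64 and -1.44 against -0.71, -1.43 and -2.31. Rsad2, encoding the radical SAM enzyme viperin, read 1.38, 0.18 and 0.71 against 1.25, 1.37 and 0.25. In both genes the groups covered the same range, with differences of -0.24 and -0.20 (adjusted p = 0.771 and 0.756). Isg20, a 3′ to 5′ exonuclease, differed by -0.36 (adjusted p = 0.283).

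**Figure D2:**
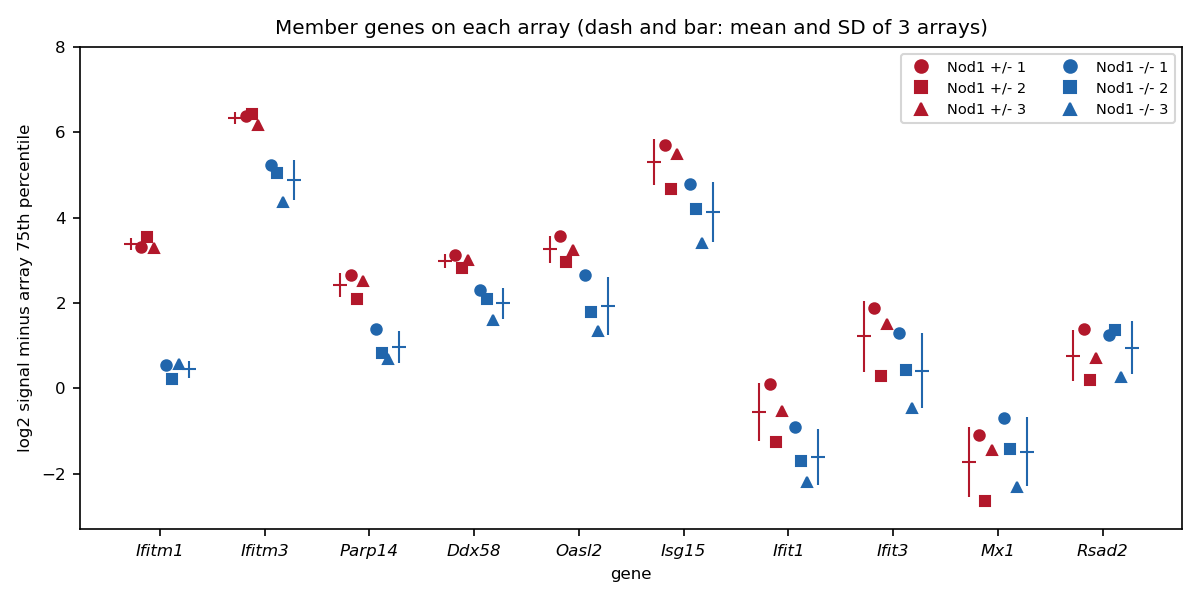
Signal of 10 members on each of the 6 arrays, as log2 relative to the array's 75th percentile (vertical axis). Marker shapes are replicates, red Nod1 +/- and blue Nod1 -/-, with the mean and SD of 3 arrays beside them. At the probe chosen for each gene, genotypes are separate for Ifitm1, Ifitm3, Parp14, Ddx58 and Oasl2. They overlap for Isg15, Ifit1, Ifit3, Mx1 and Rsad2.

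In the ISG15 system, which attaches the ubiquitin-like protein ISG15 to other proteins, the ligase gene rose while the modifier and its protease did not pass. Herc6, the mouse ISG15 ligase (chromosome 6, 57568608 to 57568667), read -1.67, -2.38 and -1.72 against -2.67, -3.26 and -3.20. Without overlap, it was 2.18-fold higher (log2 1.12, SE 0.25; adjusted p = 0.0306), and its other probe also passed, with 0.85 (adjusted p over all probes = 0.0323). Herc6 lies on the chromosome of the targeted gene, with its probe 2.69 megabases from that of Nod1, and any part of this linkage in its difference was not tested. The Herc6 call was lost on leaving out Nod1 +/- replicate 1 (adjusted p = 0.0858), Nod1 +/- replicate 3 (0.0696), Nod1 -/- replicate 2 (0.102) or Nod1 -/- replicate 3 (0.0752). Isg15 read 5.70, 4.68 and 5.50 against 4.80, 4.20 and 3.40. Nod1 -/- replicate 1 passed Nod1 +/- replicate 2, and the 2.24-fold difference (log2 1.16, SE 0.42) did not pass (adjusted p = 0.105). Another, dimmer Isg15 probe differed by 1.38 without overlap of the arrays and did not pass either (adjusted p over all probes = 0.0612). Usp18, the ISG15 protease and an inhibitor of IFNAR2 signalling, differed by 0.74 (adjusted p = 0.235).

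Ubiquitin and ADP-ribose enzymes had the largest number of members that rose, 4 of 6. Parp14, an ADP-ribosyltransferase (chromosome 16, 35832992 to 35833051), read 2.65, 2.10 and 2.51 against 1.40, 0.82 and 0.68. It was 2.74-fold higher (log2 1.45, SE 0.24; adjusted p = 0.0121) and lost the call without Nod1 -/- replicate 2, at 0.0519. Its neighbours Parp9 and Dtx3l, whose products form an ADP-ribosylating ubiquitin ligase complex, rose with it. Parp9 (chromosome 16, 35972577 to 35972636) read 1.93, 1.68 and 1.61 against 1.07, 0.84 and 0.46, a difference of 0.95 (SE 0.18; adjusted p = 0.0201). Dtx3l (chromosome 16, 35926655 to 35926714) read 1.69, 1.37 and 1.83 against 0.96, 0.82 and 0.40, a difference of 0.90 (SE 0.19; adjusted p = 0.0268). In all 3 genes the genotypes were separate, with Nod1 -/- replicate 3 the lowest array. The Parp9 call was lost without Nod1 +/- replicate 1 or 2 or Nod1 -/- replicate 2 (adjusted p = 0.0617, 0.0527 and 0.0669). That of Dtx3l was lost without Nod1 +/- replicate 1 or 3 or Nod1 -/- replicate 2 (0.0785, 0.0596 and 0.0756).

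Trim21, a cytosolic antibody receptor and ubiquitin ligase (chromosome 7, 109706478 to 109706537), read 0.81, 0.65 and 0.82 against 0.38, 0.18 and -0.22. It differed by 0.64 without overlap (SE 0.17; adjusted p = 0.0473). Trim21 passed without Nod1 -/- replicate 1 (adjusted p = 0.0464) and had 0.0613 to 0.121 without any other array. Trim25, the ubiquitin ligase that activates RIG-I, read 4.56, 4.22 and 4.91 against 4.35, 4.17 and 4.17, overlapping at Nod1 +/- replicate 2 (0.33; adjusted p = 0.247). A further Trim25 probe passed narrowly, with 0.42 (adjusted p over all probes = 0.0486). That probe ends in a long run of alternating G and T, and its specificity was not tested. Trim30a, a mouse TRIM gene that restrains NF-kB signalling, differed by 0.58 (adjusted p = 0.279).

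Of 4 further induced genes, Ifi35 rose. Ifi35, a partner of NMI (chromosome 11, 101319011 to 101319070), read 2.65, 2.49 and 2.38 against 1.94, 1.67 and 1.27. It was 1.84-fold higher without overlap (log2 0.88, SE 0.19; adjusted p = 0.0268). Leaving out Nod1 +/- replicate 1, Nod1 +/- replicate 2 or Nod1 -/- replicate 2 gave adjusted p = 0.0802, 0.0699 and 0.0815. Ifi44 read 0.26, -0.66 and 0.06 against -0.67, -1.23 and -2.0. The groups met almost exactly at Nod1 +/- replicate 2 and Nod1 -/- replicate 1, and the difference was 1.19 (SE 0.39; adjusted p = 0.0849). Ifi27l2a read 4.45, 4.34 and 4.55 against 5.13, 4.60 and 4.03, with the Nod1 +/- values inside the wider Nod1 -/- range (-0.14; adjusted p = 0.741). Xaf1, an apoptosis-related gene, differed by 0.79 (adjusted p = 0.155).

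Members other than the receptors varied together from array to array. Over these 37 genes, the mean level was 2.12, 1.53 and 1.91 on Nod1 +/- replicates 1, 2 and 3 and 1.57, 1.09 and 0.63 on Nod1 -/- replicates 1, 2 and 3. Nod1 -/- replicate 3 was the lowest of the 6 arrays for 30 of 37 genes, and Nod1 +/- replicate 1 the highest for 23. Within Nod1 -/-, replicate 3 was the lowest for 34 of 37 members (91.9%), against 41.3% of all genes, and replicate 1 the highest for 33 (89.2%), against 28.5%. Within Nod1 +/-, replicate 2 was the lowest for 29 of 37 (78.4%), against 30.98% of all genes. Nod1 -/- replicate 1 lay above Nod1 +/- replicate 2 for 20 of the 37 (54.1%), against 58.8% of all genes. Ifit1, Isg15 and Rsad2, at their chosen probes, were among the 20. None of the 13 members that rose was, since in all 13 the genotypes did not overlap. The median SD within a genotype was 0.36 over the 41 members and 0.18 over all genes, and 0.27 among members that rose against 0.50 among those that did not pass. A small pooled spread helps a gene past the threshold, so the last pair of values describes how the 13 were called.

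**Figure D3:**
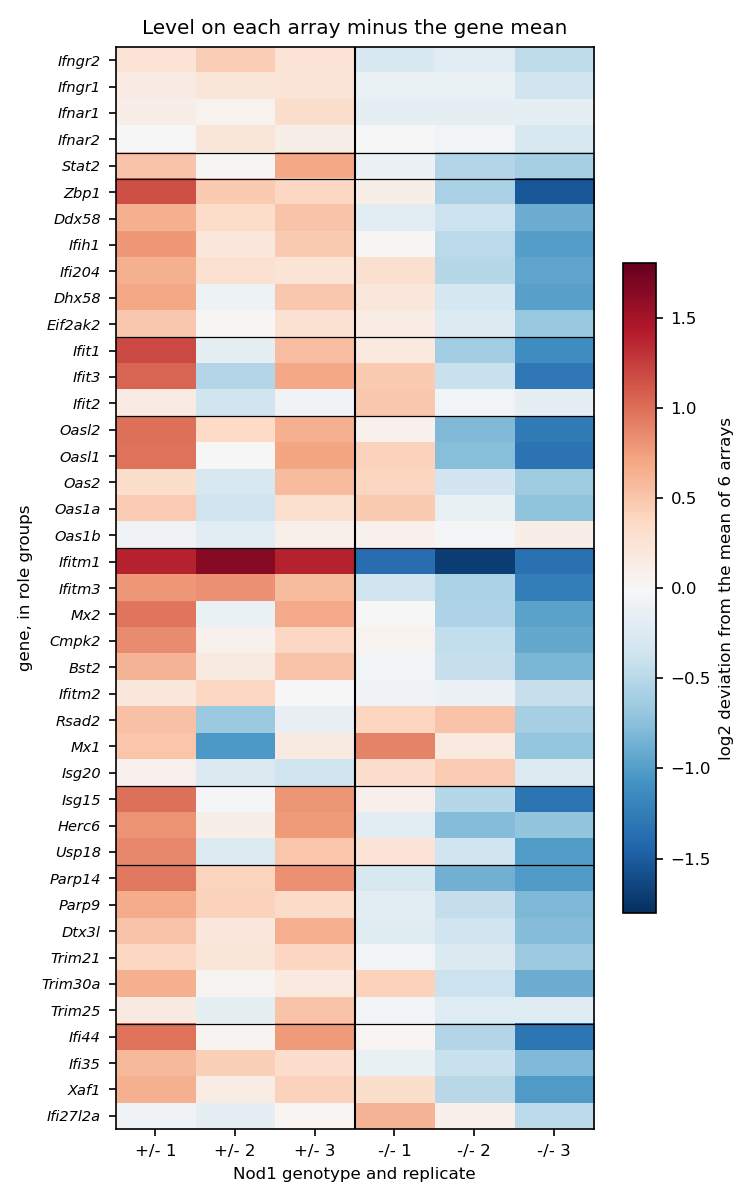
Level of each tested member on each array minus its mean over the 6 arrays, as a log2 deviation (colour), with genes in role groups as rows and arrays as columns. The line separates Nod1 +/- (left) from Nod1 -/- (right). Nod1 -/- replicate 3 is the lowest array for most rows and Nod1 +/- replicate 2 is paler than its group.

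Within each genotype, the mean level of members other than receptors was higher on arrays with high Xist than on the others. Nod1 -/- replicates 2 and 3 were alike in sex-linked transcripts and had means of 1.09 and 0.63. Signal of Xist, the RNA that silences an X chromosome in females, was high on Nod1 +/- replicates 1 and 3 and Nod1 -/- replicate 1, at 1.35, 1.49 and 1.08, and -6.24 or lower on the other 3. The Y-linked Ddx3y and Eif2s3y were high on exactly those 3 others. High Xist was thus uneven between genotypes, on 2 of 3 Nod1 +/- arrays and 1 of 3 Nod1 -/- arrays. With Xist as a covariate 9 members passed and the median difference over all 41 tested members was 0.58, with Ifitm1 at 2.96 (adjusted p = 0.00236) and Ifit1 at 0.67 (adjusted p = 0.148). On the slide, Nod1 -/- replicates 1 and 2 sat in row 1 and the 4 remaining arrays in row 2. With the row as a block, which compares the 3 Nod1 +/- arrays with Nod1 -/- replicate 3 alone, 7 members passed and the median difference over all 41 tested members was 1.26. The 7 were Ifitm1, Ifitm3, Ddx58, Parp9, Dtx3l, Ifi35 and Trim21. The part of fetal sex and slide position in the array pattern was not tested further.

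**Figure D4:**
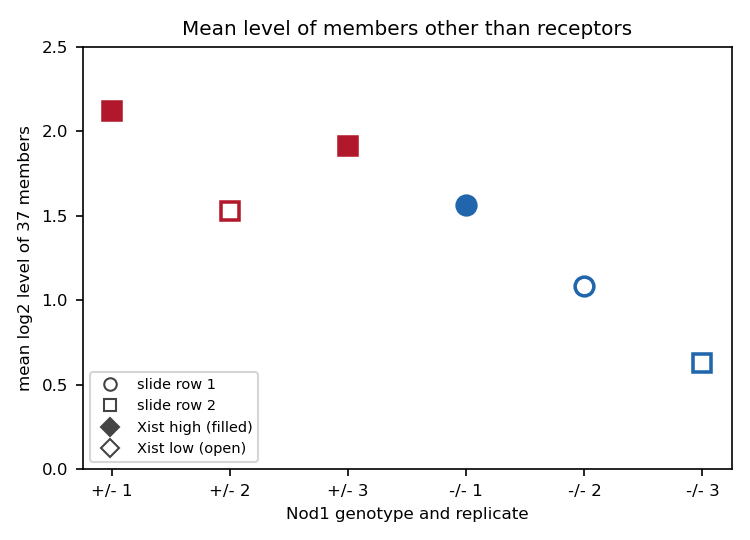
Mean log2 level of the 37 members other than receptors on each array (vertical axis), red Nod1 +/- and blue Nod1 -/-. Filled symbols are arrays with high Xist, and circles and squares are slide rows 1 and 2. Means run from 0.63 on Nod1 -/- replicate 3 to 2.12 on Nod1 +/- replicate 1, and within each genotype filled symbols lie above open ones.

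Markers of other cells were read beside these genes, as sums of linear signal in units of the array's 75th percentile. Smooth muscle markers summed to 1036 to 1105 in Nod1 +/- and 1061 to 1122 in Nod1 -/- aortas, with 0 of 7 passing. Endothelial markers summed to 179 to 228 and 198 to 233, and 2 of 8 were lower in Nod1 +/-, namely the angiopoietin receptor gene Tek (3.79-fold; adjusted p = 0.00205) and the related Tie1 (1.51-fold; adjusted p = 0.0333). Of 10 neutrophil markers 6 were higher in Nod1 +/- and none was lower, with a median difference of 2.57 over the 10. S100a8 was 9.27-fold, S100a9 9.03-fold, Retnlg 14.1-fold, Ltf 7.87-fold and Ngp 4.48-fold higher. For Cxcr2 only a bound, at least 12.4-fold higher, is given, since none of the 3 Nod1 -/- arrays measured it well above background. Cxcr2 thus entered the test, and the count of 6, only through the genotype in which it is high. The summed signal of the 10 neutrophil markers, 274 to 293 against 158 to 214, moved less than these genes. It includes the bright Csf3r probe, which differed by -0.44 (adjusted p = 0.218). Macrophage markers summed to 72.2 to 85.1 against 76.0 to 141, with 3 of 10 lower in Nod1 +/-, and fibroblast markers to 643 to 658 against 787 to 806, with 2 of 6 lower. Of 6 tested plasmacytoid dendritic cell markers 2 were higher in Nod1 +/-, namely Bst2, itself a member, and the transcription factor gene Spib (adjusted p = 0.0279). Spib was well above background on 3 of 3 Nod1 +/- arrays and 1 of 3 Nod1 -/- arrays, so it entered mainly through the genotype in which it is high. Differences were positive for 3 of the 6, and the lowest was -0.95. Nod1 +/- arrays lay wholly above Nod1 -/- arrays for 2 markers and wholly below for 1, against 16.3% and 26.1% of all genes. The summed signal of this list overlapped at 95.5 to 121 and 97.4 to 122. It includes the bright Siglech probe, which differed by -0.21 (adjusted p = 0.355). Lymphocyte markers stayed at 2.22 to 2.42 and 2.32 to 2.61, with 0 of 5 passing and with Cd8a, Klrb1c and Ncr1 not well above background on any array. Skeletal muscle markers summed to 504 on Nod1 +/- replicate 1 and at most 67.9 elsewhere, with 0 of 6 passing. Nerve and glia markers summed to 44.2 on Nod1 -/- replicate 1 and at most 14.7 elsewhere, and 1 of 7, Fabp7, was lower in Nod1 +/-. Without both of those arrays, 3 members passed, namely Ifitm1, Parp14 and Oasl2. In that smaller fit the count of all genes higher in Nod1 +/- fell from 1646 to 395. The median difference of the 41 members was 0.91 there, against 0.79 with all arrays. The part of these cells in the members' differences was not tested. The Nod1 probe read 3.37 ± 0.35 in Nod1 +/- and 3.24 ± 0.09 in Nod1 -/- (SD, n = 3) and does not check the labels, since the deleted part of the gene is not given in the sources used here.

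With all 6 arrays, no tested interferon gene passed between genotypes. Of 19 listed ligands 15 were on the array and 5 were tested, namely Ifna1, Ifna12, Ifna14, Ifnab and Il28b, with differences from -0.99 to 0.19 and 0 unadjusted p below 0.05 in limma. Without Nod1 +/- replicate 3, Ifna12 was called lower in Nod1 +/- (difference -1.51; adjusted p = 0.0332). That probe was well above background on 1 of 3 Nod1 +/- arrays and 3 of 3 Nod1 -/- arrays. It thus entered the test mainly through the genotype in which it is high, and the other Ifna12 probe was not well above background on any array. Ifnb1, Ifng, Ifne, Ifna2, Ifna4, Ifna7, Ifna11 and Ifna13 were not well above background on any of the 6 arrays, and Ifna5 and Ifnk were so on too few. A ligand transcript was thus not detectable at this single time in most cases, which does not show its absence at other times or in other tissues.

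In the signal chain between sensors, receptors and promoters, 5 of 15 tested genes rose (33.3%) and none fell. Tmem173, encoding the DNA-sensing adaptor STING, read 3.30, 3.70 and 3.27 against 2.08, 1.98 and 1.66 (2.86-fold; adjusted p = 0.0041). Traf3, an adaptor upstream of the kinases that activate IRF3, read 2.80, 2.89 and 3.18 against 1.53, 1.63 and 1.86 (2.43-fold; adjusted p = 0.0041). Jak1, the kinase shared by both receptor types, read 4.40, 4.34 and 4.15 against 3.35, 3.44 and 3.16 (1.97-fold; adjusted p = 0.00555). In these 3 genes replicates of a genotype lay close together, unlike most of the antiviral effectors. Jak2 and the kinase Ikbke rose by 0.45 and 0.65 (adjusted p = 0.0223 and 0.027). Irf9 differed by 0.45 (adjusted p = 0.232) and Irf7, itself an interferon-stimulated gene, by 0.80 (adjusted p = 0.305). Jak2 and Ikbke lost their calls in several leave-one-out fits, and the count for the chain was 3 without Nod1 +/- replicate 2 or Nod1 -/- replicate 2.

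Among 8 feedback regulators, of which Isg15 and Usp18 are also members, 2 rose. Socs3, an inhibitor of JAK kinases mainly downstream of IL-6 type cytokines, read 3.41, 3.97 and 3.75 against 1.60, 1.28 and 1.68 (4.55-fold; adjusted p = 0.00177). Ptpn1, a phosphatase of JAK2 and TYK2, differed by 0.74 (adjusted p = 0.0136), and its adjusted p was 0.0562 without Nod1 -/- replicate 2. Socs1, the main inhibitor of interferon signalling, differed by 0.02 with overlapping arrays (adjusted p = 0.932).

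A further list of 47 interferon-stimulated genes gave a share like that of the members, with 14 of 42 tested genes higher (33.3%) and none lower, and a median difference of 0.50. The 6 with the smallest p were Casp4, the cytosolic endotoxin-sensing caspase (9.16-fold; adjusted p = 0.000391), Parp10 (2.90-fold; 0.00564), the necroptosis effector Mlkl (2.66-fold; 0.00622), the immunoproteasome subunit Psmb8 (3.82-fold; 0.00686), Parp12 (1.98-fold; 0.0103) and Nmi (1.83-fold; 0.0117). Casp4 read 4.46, 4.54 and 4.41 against 1.5, 1.32 and 1.0, with a separation as wide as that of Ifitm1. The count was 8 or 9 without Nod1 +/- replicate 1 or 2 and 6 without Nod1 -/- replicate 2.

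Genes best known from interferon gamma responses had a larger median difference than the members. Of 9 tested, 5 rose and none fell, with a median difference of 1.68 against 0.79 among members. Irgm1, Igtp, Iigp1 and Ciita did not pass, and the lowest difference of the 9 was 0.50. Gbp2 read 5.01, 5.21 and 4.45 against 1.51, 1.22 and 0.81, Irf1 4.43, 4.51 and 4.56 against 2.94, 2.92 and 2.60, and Gbp4 1.0, 0.79 and 0.83 against -1.03, -1.32 and -1.64. In all of these the genotypes were far apart, with adjusted p of 0.00111, 0.00132 and 0.00146. Gbp3 differed by 2.29 (adjusted p = 0.00648). Cxcl9, the fifth of the genes that passed (adjusted p = 0.0057), was measured well above background on 3 of 3 Nod1 +/- arrays and 1 of 3 Nod1 -/- arrays, so it entered the test mainly through the genotype in which it is high, and no fold is given for it. The 5 calls were made whichever single array was left out. The difference between this list and the antiviral members was not tested.

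**Figure D5:**
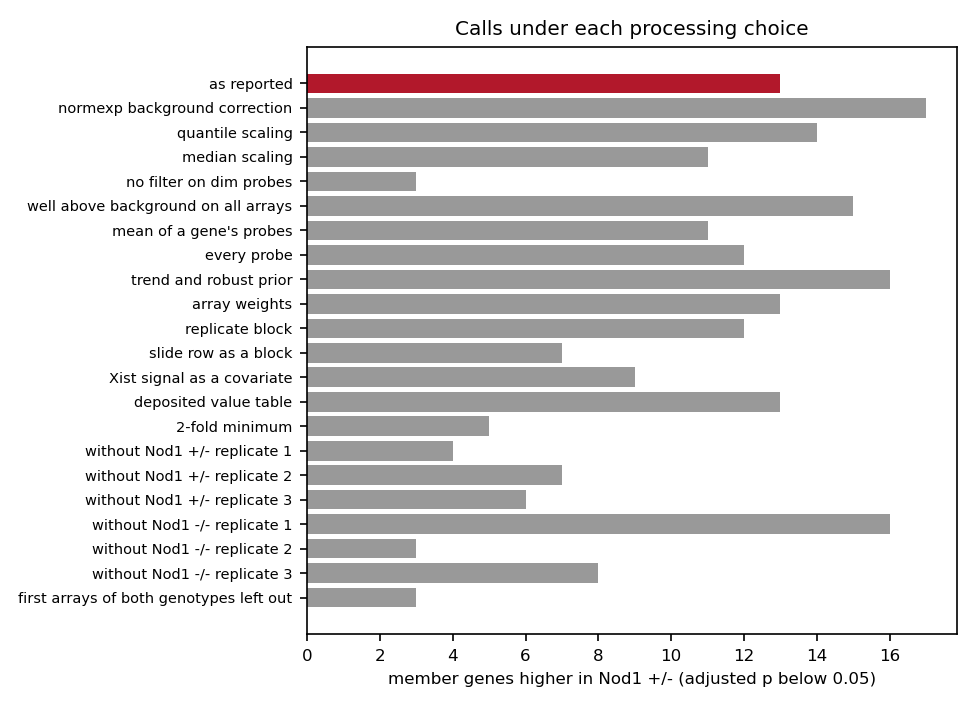
Number of the tested members higher in Nod1 +/- at adjusted p below 0.05 (horizontal axis) under each processing choice (vertical axis), with the value as reported in red. Counts run from 3 to 17 around the reported 13.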

How the data were processed

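RNA from fetal aortic arteries was read on 6 one-colour Cy3 Agilent arrays, 3 per genotype in the labels. The scanner output deposited by the authors holds a linear intensity for each spot, from which the scanner software had subtracted background. The file headers name Feature Extraction 10.7.1.1 and the submitters' processing notes 9.5.1.1, and this disagreement was not resolved. The arrays had a 75th percentile of 373 to 441, 48.6% to 58.4% of probes were well above background, and no member spot was saturated. The deposited value table of the series, also an intensity table of the authors, followed the scanner values (correlations from 0.998 upwards). Its scaling step is not given in the sources used here, so it served as an alternative, and 0 of its columns lacked a sample.

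Control and outlier spots were left out, spots of a probe were averaged on the log2 scale, and each array was set to 0 at the 75th percentile of its non-control probes. Of these 55681 probes, 134 had no usable spot on some array. A probe was kept when well above background on at least 3 of 6 arrays, which left 30166, and each gene took the brightest of its kept probes. This rule set the probe of 14 members with several kept probes. The genotype comparison used lmFit and eBayes of limma 3.58.1, under R 4.3.3, over all 21478 genes, with Benjamini-Hochberg adjustment and a threshold of 0.05, on files read with the package data.table, version 1.17.8. Over all genes 1646 were higher and 2369 lower, and with median scaling 1600 and 924. The script was tested on simulated data. Figures were drawn with matplotlib 3.10.9 and numpy 2.4.6.

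Members, lists and tests were chosen with earlier results of these data known. Every member is named. Array values are given for members past the threshold and, in each role group, for the largest difference and the highest mean signal, and from other lists up to 6 genes that passed, by smallest p. Array values of Ifitm2, Mx1 and Rsad2 were added after they were seen. Alternatives covered background correction (normexp, offset 50), scaling, filters, probe choice, variance prior, array weights, replicate number and slide row as blocks, Xist as a covariate, the deposited table, a 2-fold minimum and arrays left out. Promoters were searched in RefSeq windows of GRCm38.p6, where 11 members had no match by symbol.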

Additional observations from a re-analysis of the deposited data

How the results depend on the processing

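The count of members higher in Nod1 +/- was 13 as reported and between 3 and 16 when each array was left out in turn. It was 3 with no filter on dim probes, which lowers the number of calls over all genes too (802 higher), 7 when the row on the slide was a block, 5 with a 2-fold minimum, and 3 without the first array of both genotypes. Under normexp, quantile or median scaling, the stricter filter, the mean of probes, every probe, a trended robust prior, array weights, Xist as a covariate and the deposited table it lay between 9 and 17, and no member was called lower under any setting. With the replicate number as a block it was 12. Same-numbered arrays deviated together with correlations of 0.08, 0.28 and 0.11, so the numbers were not taken to pair the samples. Of the 13, only Ifitm1 passed in all 20 alternatives that give each gene a single value, Ifitm3 in 19 and Parp14 in 18, while Ifngr1 passed in 6, and 18 of the 41 members passed in none. No member that rose changed sign under any alternative. Over all genes the counts fell to 606 higher and 428 lower with the row block and to 1029 and 1260 with Xist, and the lower count rose to 3811 with array weights. The higher count over all genes was between 805 and 1313 with single arrays left out, and 395 without both first arrays. The number of arrays limits the precision, and what moved the counts was not tested.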
